A study of Mus musculus with 18 samples.

Results

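Potassium channel genes were taken as all autosomal protein-coding mouse genes whose symbol begins with Kcn and a letter. There were 92 of them among 20665 autosomal protein-coding genes. The other 6 of 98 such symbols were left out: 4 were not protein-coding and 2 lay on the X chromosome. DNA methylation was profiled in hearts of 12-week-old male C57BL/6JR mice by MeDIP-seq, in which sheared DNA is enriched with an antibody against methylated cytosine and then sequenced. Myocardial infarction (MI) was induced by ligation of the left anterior descending coronary artery, and tissue was collected after 10 min, after 1 or 6 h, or after 24 or 72 h. Sham mice, the controls, had the operation with a suture placed and not tied, and they carry the time 0 h in the study's design. Each of the 6 groups had 3 mice and so 3 libraries, 18 in all. All mice, sham included, were anaesthetised with sodium pentobarbital. The labels call the material myocardial tissue and its cell type cardiomyocytes. No sorting of cells and no zone of the ventricle is described, so a changed mix of cells and a changed methylation within a cell cannot be told apart.

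Potassium channels let potassium ions leave the cell and so bring the membrane back to rest after each heartbeat. A channel is built from pore-forming subunits, which open with voltage (Kcna, Kcnb, Kcnc, Kcnd, Kcnq, Kcnh), with calcium (Kcnm, Kcnn), with sodium (Kcnt) or with voltage and pH (Kcnu, a relative of Kcnm), or carry inward-rectifying (Kcnj) or leak currents (Kcnk), and from accessory subunits that tune them (Kcne, Kcnip, Kcnab, Kcnmb). Cytosine methylation in mammals falls mostly on CG pairs: CG-rich promoters are usually free of it, while gene bodies usually carry it. A drop in repolarising potassium currents is a known feature of the infarcted heart.

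The measure throughout is the percent of a gene's window (the gene span plus 2000 bases on each side) that lies under peaks called by the authors in a library. A peak marks a pile-up of methylated fragments, so the percent is an extent of enrichment and not the share of methylated molecules. Peak scores, as deposited, start at 50 in every library. The lists hold from 34255 to 60653 peaks per library. They hold no read counts, so depth is unknown and no counting interval could be given.

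RefSeq promoters (GRCm38.p6, 250 bases before to 50 bases after a start site) were found for 68 of the 92 genes, 93 promoters in all. The motif searched in them was CG, which reads the same on both strands; 95.6% of the 20085 promoters of all autosomal genes hold at least 1. Shown first, 5′ to 3′ with each CG in capitals, are 4 CG-rich promoters of heart channel genes. Kcnd2 and Kcnip2 encode the pore and an accessory subunit of the transient outward current, Kcnh2 the rapid delayed rectifier and Kcnj2 an inward rectifier. They lie at chr6:21215096-21215395 (+), chr19:45816014-45816313 (-), chr5:24329542-24329841 (-) and chr11:111065914-111066213 (+), with 26, 18, 19 and 18 CG.
Kcnd2: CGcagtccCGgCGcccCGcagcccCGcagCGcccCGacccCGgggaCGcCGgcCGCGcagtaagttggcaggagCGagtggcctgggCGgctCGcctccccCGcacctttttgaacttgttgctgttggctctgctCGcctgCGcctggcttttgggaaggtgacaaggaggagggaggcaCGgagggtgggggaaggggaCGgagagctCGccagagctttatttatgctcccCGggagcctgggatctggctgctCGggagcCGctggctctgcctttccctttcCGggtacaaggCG
Kcnip2: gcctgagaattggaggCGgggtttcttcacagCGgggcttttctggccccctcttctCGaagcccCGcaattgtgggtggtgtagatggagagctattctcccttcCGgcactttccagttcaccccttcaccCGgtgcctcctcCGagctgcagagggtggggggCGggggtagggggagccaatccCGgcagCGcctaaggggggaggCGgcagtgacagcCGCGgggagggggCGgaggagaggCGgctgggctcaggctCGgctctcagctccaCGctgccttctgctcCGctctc
Kcnh2: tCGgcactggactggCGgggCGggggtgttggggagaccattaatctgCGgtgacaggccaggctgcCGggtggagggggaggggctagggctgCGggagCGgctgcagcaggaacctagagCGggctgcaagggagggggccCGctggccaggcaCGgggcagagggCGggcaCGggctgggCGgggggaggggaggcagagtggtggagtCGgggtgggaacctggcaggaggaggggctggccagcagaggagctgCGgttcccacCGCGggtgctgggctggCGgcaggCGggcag
Kcnj2: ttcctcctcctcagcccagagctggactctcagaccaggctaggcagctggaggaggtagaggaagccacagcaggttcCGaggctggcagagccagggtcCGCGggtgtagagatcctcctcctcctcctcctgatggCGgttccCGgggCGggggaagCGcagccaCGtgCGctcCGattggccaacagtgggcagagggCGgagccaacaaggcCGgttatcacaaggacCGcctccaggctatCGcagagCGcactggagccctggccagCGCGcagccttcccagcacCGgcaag
None of these 4 stretches was touched by a peak in any of the 18 libraries. The next 3 are the promoters of channel genes that a peak did touch, at chr1:78816661-78816960 (+) for Kcne4, chr1:189402224-189402523 (-) for an alternative start site of Kcnk2, and chr11:110997237-110997536 (+) for an alternative start site of Kcnj16. They hold 9, 6 and 8 CG.
Kcne4: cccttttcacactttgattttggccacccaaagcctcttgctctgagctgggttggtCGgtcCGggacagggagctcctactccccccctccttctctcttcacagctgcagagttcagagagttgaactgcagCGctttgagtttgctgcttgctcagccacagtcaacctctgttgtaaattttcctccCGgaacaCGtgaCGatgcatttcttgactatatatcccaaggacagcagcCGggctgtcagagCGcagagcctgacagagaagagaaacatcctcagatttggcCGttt
Kcnk2: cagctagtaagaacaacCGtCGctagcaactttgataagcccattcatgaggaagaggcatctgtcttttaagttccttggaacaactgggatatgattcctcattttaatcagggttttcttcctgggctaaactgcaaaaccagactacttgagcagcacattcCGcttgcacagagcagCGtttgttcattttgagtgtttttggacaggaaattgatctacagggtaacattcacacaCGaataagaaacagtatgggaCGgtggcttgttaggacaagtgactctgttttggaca
Kcnj16: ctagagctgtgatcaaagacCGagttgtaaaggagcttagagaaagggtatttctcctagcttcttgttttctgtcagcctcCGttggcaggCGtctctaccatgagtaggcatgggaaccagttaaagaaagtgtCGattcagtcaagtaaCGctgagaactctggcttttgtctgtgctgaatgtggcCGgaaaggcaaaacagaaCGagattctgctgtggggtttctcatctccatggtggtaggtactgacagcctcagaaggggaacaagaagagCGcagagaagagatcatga
Peaks touched the Kcne4 stretch in 5 libraries, that of Kcnk2 in 12 and that of Kcnj16 in 11. The last stretch is the promoter of Kcnq1ot1, a noncoding RNA read from the opposite strand inside Kcnq1 and known as the transcript of an imprinted domain whose control element is methylated on the maternal copy. It lies at chr7:143296498-143296797 (-), holds 9 CG, and was touched by a peak in 16 of 18 libraries.
Kcnq1ot1: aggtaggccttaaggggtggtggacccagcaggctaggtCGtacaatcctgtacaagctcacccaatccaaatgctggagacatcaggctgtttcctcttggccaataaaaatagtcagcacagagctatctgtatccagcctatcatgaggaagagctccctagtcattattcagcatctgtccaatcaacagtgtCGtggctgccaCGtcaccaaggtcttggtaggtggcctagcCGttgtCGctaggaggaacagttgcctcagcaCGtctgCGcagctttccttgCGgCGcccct

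Across all promoters of channel genes, 3 of 93 (3.23%) were touched by a peak in at least 1 library, against 1213 of 20085 (6.04%) over all autosomal genes. Of the channel promoters with at least 15 CG, 0 of 35 were touched, and the share over all genes was 1.57%. Below 15 CG, 3 of 58 were touched (5.17%), against 10.2% over all genes. Around start sites the channel genes departed from all genes in both directions, and they did so further away too. From 8000 to 7000 bases before a start site they had 0.811% against 2.62% over all genes. From 4000 to 5000 bases after it they had 4.23% against 2.80%. Departures near the start site are therefore not shown to be particular to it. In the 1000 bases before a start site, 0.336% of bases of the 68 genes were under peaks (mean of 18 libraries), against 1.26% over 16457 genes. From 1000 to 2000 bases after it the order was the opposite, with 4.58% for channel genes and 2.31% for all genes. The channel value in that bin ran from 3.05% to 6.77% over the 18 libraries, a range that does not show the spread over the 68 genes. Kcnd2, Kcna6, Kcnh6, Kcnk18 and Kcne4 each have a region reaching into it that recurs in 12 to 18 libraries.

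**Figure D1:**
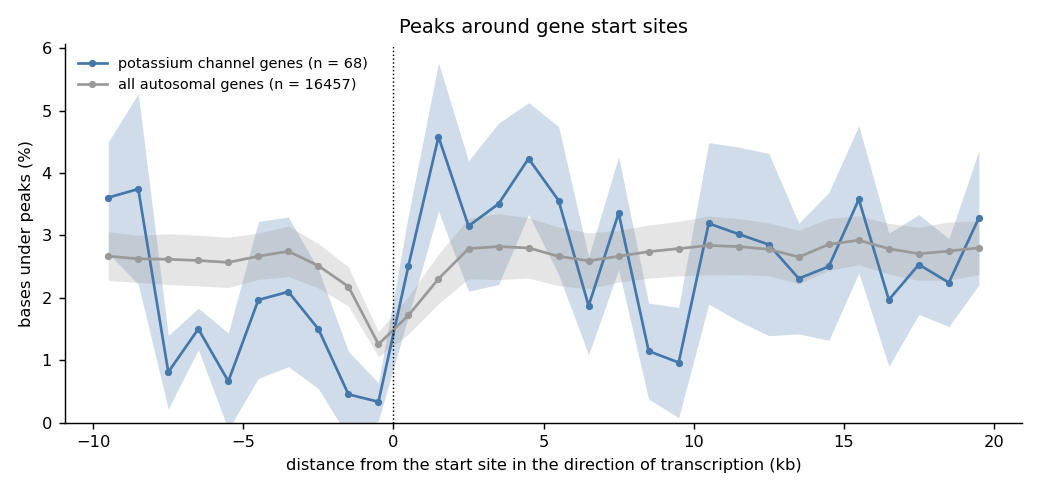
Percent of bases under peaks in bins of 1000 bases, by distance from the start site in kb, for 68 potassium channel genes (blue) and 16457 autosomal genes (grey). Lines are means and bands the SD over 18 libraries; the channel genes lie at 0.336% just before the start site and at 4.58% between 1000 and 2000 bases after it.

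The clearest such case is Kcnd2. A region at chr6:21215916-21217693 begins 570 bases after the start site shown above and ends 2347 bases after it, in the 5′ part of the gene. It had a peak in 17 of 18 libraries, with a mean score of 132 ± 49.9 (SD over those libraries). The stretch with 26 CG before it had a peak in none.

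Over 18 libraries the median channel gene had 1.94% of its window under peaks, close to the 1.72% of all autosomal genes. A peak in all 18 libraries was more common among channel genes, at 37 of 92 (40.2%) against 20.1% of all genes. Channel genes are also longer, with a median of 34546 bases against 17491, and longer genes had a peak in every library more often. Up to 10000 bases, 2 of 20 channel genes had one in all 18, against 3.55% of all genes. From 10000 to 50000 bases it was 7 of 34 (14.1% of all genes), and from 50000 to 200000 bases 11 of 20 (48.9%). Over 200000 bases it was 17 of 18, against 87.8%. The part of length in the difference between channel genes and all genes was not tested. The channel genes over 200000 bases were thinly covered, with a median of 1.06% against 1.60%. Between 10000 and 50000 bases the order was reversed, at 3.47% for channel genes and 2.23% for all genes. From 50000 to 200000 bases the medians were 3.50% and 2.22%, and up to 10000 bases 0.649% and 0.358%. No peak in any library was found at 7 genes (Kcna1, Kcna3, Kcna5, Kcnj13, Kcnrg, Kcns2, Kcnv1), and 10 more had one in 1 or 2 libraries. That left 75 of 92 genes (14333 of all 20665) with a peak in at least 3 libraries for testing. The filter did not use the groups, but a gene with few peaks could pass it through its high groups alone. Kcnf1 and Kcnk16, which had no peak in sham libraries, passed in this way.

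By class, the inward rectifiers had the highest median extent, 3.32% over 15 genes, followed by the tandem-pore leak channels with 3.08% over 14. The 26 voltage-gated genes of the Kcna to Kcnd families and their silent partners (Kcnf, Kcng, Kcns, Kcnv) had 1.91%. The 8 calcium-activated genes and their relatives (Kcnm, Kcnn, Kcnt, Kcnu) had 1.88% and the 16 accessory subunits 1.70%. Lowest were the 8 ether-a-go-go genes with 1.40% and the 5 KCNQ genes with 1.34%. These lowest classes also had the longest genes, with median lengths of 156106 and 300263 bases. The inward rectifiers had 29675 and the tandem-pore genes 37066. The part of length in the order of the classes was not tested. The accessory subunits ran from 0% at Kcnrg to 17.9% at Kcne4, which encodes a small subunit that dampens KCNQ and other voltage-gated channels.

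**Figure D2:**
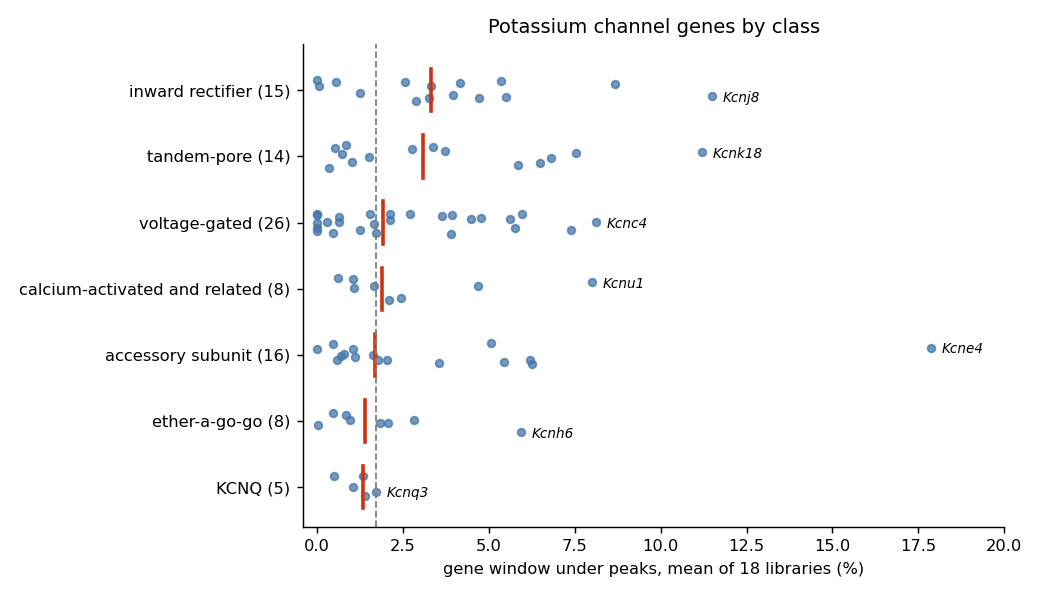
Percent of the gene window under peaks, mean of 18 libraries, for each of 92 potassium channel genes (points), by class with the number of genes. Red bars are class medians, the dashed line is the median of all autosomal genes at 1.72%, and the highest gene of each class is named, with Kcne4 at 17.9%.

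No MI group was apart from sham in the summed percent of these genes. Summed over all 92 windows, 1.77% ± 0.315 (SD, n = 3) lay under peaks in sham hearts. After MI it was 1.66% ± 0.197 at 10 min and 1.69% ± 0.101 at 1 h. The 6 h group had 1.60% ± 0.293, the 24 h group 1.69% ± 0.186 and the 72 h group 1.97% ± 0.234. By class, the accessory subunits went from 1.36% ± 0.162 in sham hearts to 1.73% ± 0.158 at 72 h, and the tandem-pore genes from 3.53% ± 0.893 to 4.13% ± 0.754 (SD, n = 3). The means of all other classes were also above sham at 72 h. So was that of all autosomal genes, with 2.50% ± 0.395 in sham hearts and 2.70% ± 0.249 at 72 h. Over all 92 genes every MI group overlapped with sham, whose libraries stood at 1.58%, 2.13% and 1.59%. Libraries with more peaks had more cover: the highest values, 2.21% in the second library at 72 h and 2.13% in the second sham library, came with 60653 and 60130 peaks, and the lowest, 1.32% in the third library at 6 h, with 34255.

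Relative to all genes, the channel genes had their highest cover at 1 h. The ratio of their percent to that of all autosomal genes was 0.804, 0.807 and 0.825 in the libraries at 1 h, above all other libraries. It ran from 0.687 to 0.722 in sham hearts and from 0.735 to 0.784 at 10 min. The 6 h group spanned 0.715 to 0.746, the 24 h group 0.724 to 0.752 and the 72 h group 0.703 to 0.745. The numerator hardly moved, and the denominator was lower: all genes had 2.50% ± 0.395 in sham hearts and 2.08% ± 0.0950 at 1 h (SD, n = 3). The libraries at 1 h had 43400 to 45466 peaks. Of other libraries with similar numbers, the third sham library had 44328 peaks and a ratio of 0.687. The third library at 10 min had 44028 and 0.784, and the first at 6 h had 43071 and 0.746. The part of list length in the ratio was not tested. The rise of 0.106 over sham was 0.0698 with peaks of score 75 or more, and 0.0752 with an equal number of top peaks in each library. With the higher score minimum the 1 h libraries, at 0.891 to 0.973, no longer lay above the others. With equal lists they stood at 0.903, 0.803 and 0.836 and overlapped with the second sham library at 0.824 and the second 24 h library at 0.825. The ratio is a description of a chosen list and has no test.

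**Figure D3:**
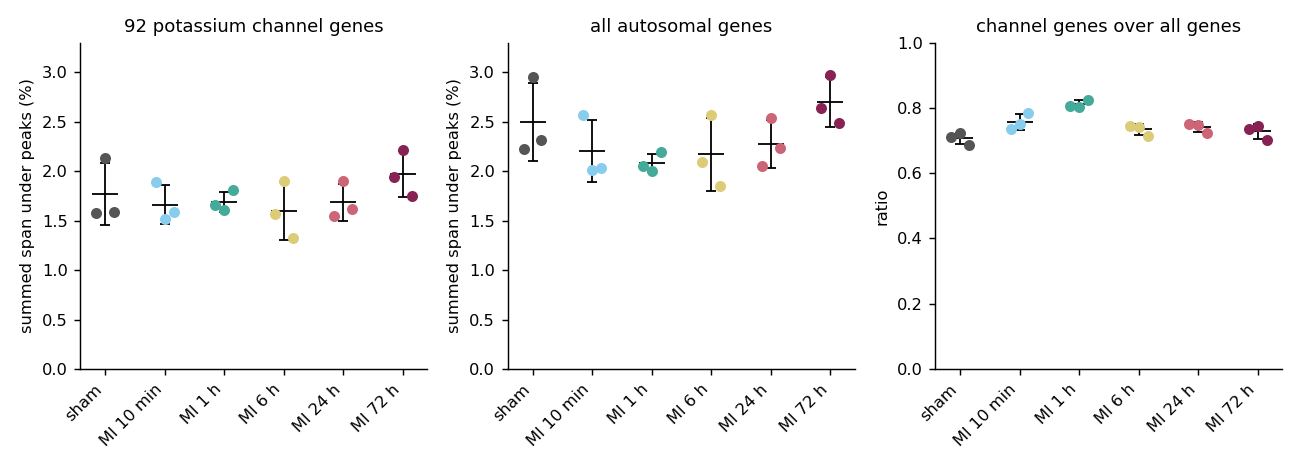
Percent of the summed windows under peaks in each library for 92 potassium channel genes (left) and all autosomal protein-coding genes (middle), and the ratio of the former to the latter (right). Points are libraries, bars are mean and SD of 3; the ratios at 1 h, 0.804 to 0.825, lie above those of the other 15 libraries.

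No channel gene passed the test for a change. In limma's moderated F test over the 6 groups, 0 of 75 genes had an adjusted p under 0.05 (Benjamini-Hochberg over 14333 genes; 0.251% of all genes passed), and the lowest adjusted p was 0.512. Against sham, limma called 0 of 75 at each time, where the shares of all genes called were 0.0419%, 0.0419%, 0.0279%, 0.0698% and 0.119% from the earliest to the latest time. It called 0 of 75 with all MI libraries together (0.0628% of all genes). At an unadjusted p under 0.05 the limma counts were 4 over the 6 groups (6.30% of all genes) and 2 for all MI (4.92%). From the earliest to the latest time they were 2 (5.02%), 3 (4.86%), 1 (5.62%), 2 (4.86%) and 5 (7.01%). With 75 genes tested, each of these counts lies near or below the share of all genes. Among the genes behind them, named after their values were seen, were Kcna4, Kcnj11 and Kcnk16 over the groups and Kcnc4, Kcne1, Kcnf1, Kcnj11, Kcnk9 and Kcnk16 in the single contrasts.

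The direction of the differences was also counted. In the same order of times, the mean lay above sham for 33 of 75 channel genes (38.4% of all genes), 32 (33.1%), 23 (37.8%), 33 (41.8%) and 50 (57.2%). Genes whose 3 MI libraries all lay above the 3 sham libraries numbered 1 (2.27% of all genes), 1 (1.65%), 1 (2.20%), 2 (2.64%) and 6 (5.67%). Genes wholly below sham numbered 2 (5.27%), 3 (7.14%), 3 (5.45%), 4 (5.21%) and 3 (2.97%). The 6 at 72 h were Kcnab1, Kcng3, Kcnh6, Kcnip1, Kcnj11 and Kcnk6, from 5 classes of channel. Of the 3 below sham at 72 h, Kcnh5 and Kcnh7 are ether-a-go-go channels and Kcnj15 is an inward rectifier. All MI groups share the same 3 sham libraries.

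Kcnq1 encodes the pore of the slow delayed rectifier and lies at chr7:143106877-143427050. Its percent was 1.05, 1.83 and 1.17 in sham hearts, then 1.51, 0.510 and 1.05 in the 10 min group and 1.21, 0.785 and 1.40 in the 1 h group. The 6 h libraries had 1.08, 2.25 and 0.620, the 24 h libraries 1.62, 2.34 and 0.635, and the 72 h libraries 1.79, 2.11 and 1.20. All groups overlapped with sham (limma F test, adjusted p = 0.975). Its 18 merged regions include the one over the Kcnq1ot1 promoter shown above, at chr7:143294589-143297203. That region had a peak in 17 libraries with a mean score of 111 ± 34.0 (SD), and lacked one in the second library at 10 min. A region further along Kcnq1, at chr7:143416019-143418278, also had a peak in 17 libraries. Between them, chr7:143328045-143329259 was called in 9 of 15 MI libraries and in 0 of 3 of sham, a region picked here after its values were seen.

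Kcnd2 forms the pore of the fast transient outward current, the main early repolarising current of mouse ventricle, and lies at chr6:21215346-21729805. Sham hearts had 0.817%, 0.722% and 0.451%, the 10 min libraries 0.324%, 0.379% and 0.744%, and the 1 h libraries 0.290%, 0.862% and 0.938%. Later values were 0.905%, 1.21% and 0.811% at 6 h, then 0.267%, 0.703% and 1.05% at 24 h, and last 0.234%, 0.461% and 0.614% at 72 h. The groups overlapped with sham throughout, and the 6 h libraries were the highest group (limma F test, adjusted p = 0.957). Its partner Kcnip2, a calcium-binding subunit that brings Kcnd channels to the surface, had 2.71%, 7.49% and 0% in sham hearts and 3.20%, 7.96% and 7.71% at 72 h. The groups again overlapped (limma F test, adjusted p = 0.902). Most of the Kcnip2 signal came from chr19:45799536-45801209, with a peak in 14 libraries.

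Kcnh2, at chr5:24319589-24351684, had a peak in 10 libraries and was at 0% in the other 8. Sham hearts had 0%, 2.54% and 3.93%, and the libraries at 72 h had 0%, 5.67% and 2.21%. A 0% library occurred in every group (limma F test, adjusted p = 0.993). Its main region, chr5:24323039-24325187, had a peak in 8 libraries with scores from 51.1 to 83.0. Kcnj2, at chr11:111066164-111076825, sets the resting potential. It had a peak in 4 libraries only, 1 each from sham (5.59%) and the 10 min (5.81%), 24 h (5.93%) and 72 h (5.38%) groups, all in the region chr11:111071584-111072503. The other 14 libraries were at 0% (limma F test, adjusted p = 0.967). Neither gene showed a difference beyond the spread of its libraries.

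**Figure D4:**
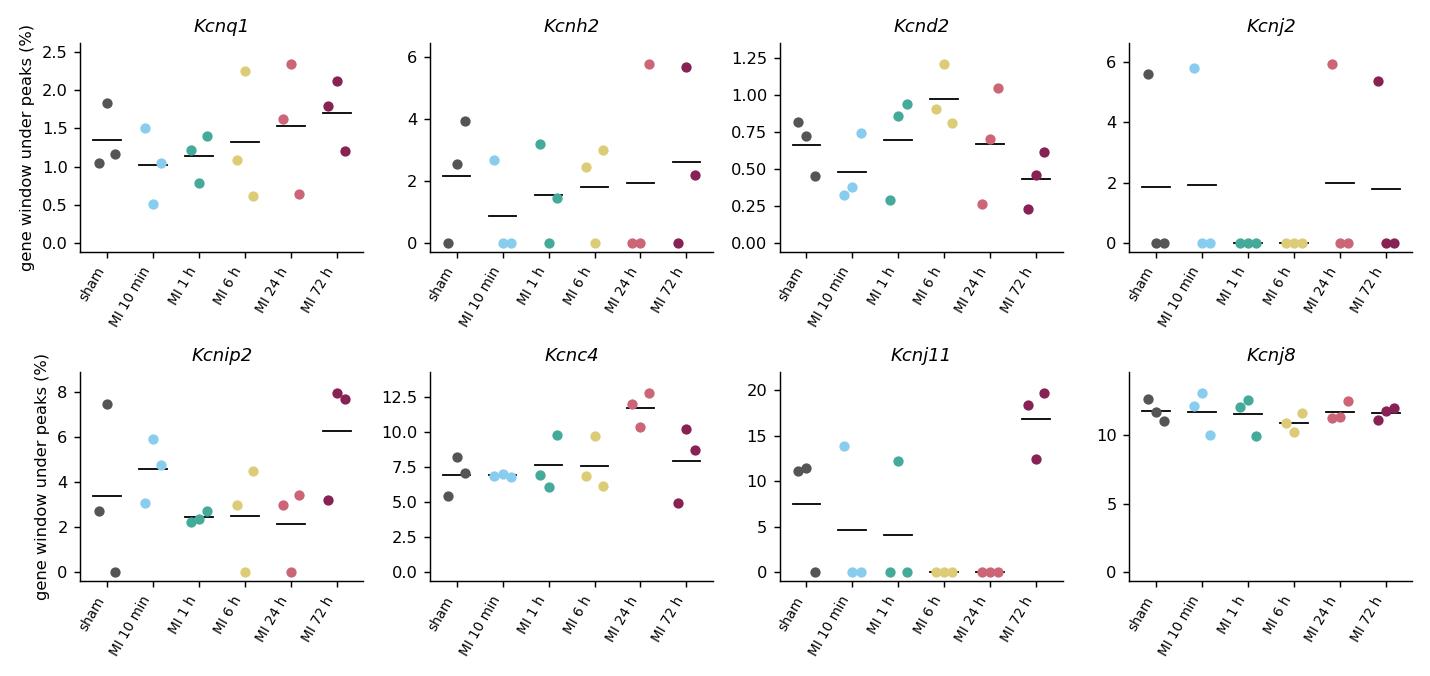
Percent of the gene window under peaks in each of 18 libraries (points) by group, with group means as bars, for the 5 heart channel genes Kcnq1, Kcnh2, Kcnd2, Kcnj2 and Kcnip2, and for Kcnc4, Kcnj11 and Kcnj8. Scales differ between panels; Kcnc4 is highest at 24 h and Kcnj11 at 72 h, while Kcnj8 stays between 9.90% and 13.0%.

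Among the voltage-gated genes, Kcnc4, whose product opens at strongly positive voltages, had 5.41%, 8.24% and 7.06% in sham hearts and 12.0%, 10.4% and 12.8% at 24 h. The groups did not overlap, and the difference of 4.80 percentage points (SE 1.63, limma) had an adjusted p of 0.912. It was 0.172 points with peaks of score 75 or more and 2.85 points with an equal number of top peaks in each library. Kcng2, a silent subunit of voltage-gated channels, ran from 1.33% to 1.86% at 6 h and from 4.76% to 10.1% at 72 h, around sham values of 3.90%, 6.73% and 1.84%. Kcna7 had 9.84%, 11.8% and 11.7% at 72 h and was at 0% in 5 libraries, 1 of sham, 2 of the 10 min group and 1 each of the 1 h and 24 h groups. Neither gene's groups were apart from sham at 72 h.

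Among the inward rectifiers, Kcnj8 and Kcnj11 encode the pore subunits of ATP-sensitive potassium channels, which open when the cell runs short of energy. Kcnj8 had 9.90% to 13.0% of its window under peaks in all 18 libraries, from 1 region at chr6:142565248-142566910 with a mean score of 179 ± 45.1 (SD). Group means ran from 10.9% ± 0.705 at 6 h to 11.7% ± 0.807 in sham hearts (SD, n = 3; limma F test, adjusted p = 1.00). Kcnj11, a short gene at chr7:46097123-46100952, behaved otherwise. It had 11.1%, 11.4% and 0% in sham hearts and 18.3%, 12.4% and 19.6% at 72 h. At 6 h and 24 h all 6 libraries were at 0%, and 1 of 3 libraries had a peak at 10 min (13.9%) and at 1 h (12.2%). The 72 h libraries lay above sham by 9.27 percentage points (SE 4.09, limma, adjusted p = 0.712). The difference was 5.52 points without the third sham library, the one at 0%, and 19.0 points over the gene without its flanks. All of this is the presence or absence of 1 weak region, chr7:46098468-46100004, whose scores ran from 51.0 to 91.3 where called. With a score of 75 or more it remained in the first sham library alone. Kcnj14 had a peak in all 18 libraries, at chr7:45817332-45818879.

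Of the tandem-pore genes, Kcnk18 held the strongest region of all channel genes. Its region at chr19:59221494-59225108 had a peak in every library with a mean score of 243 ± 56.5 (SD), and the gene's percent ran from 4.62 to 15.5. Kcnk2, a stretch-activated leak channel, had 25 merged regions, 0 of them in all 18 libraries, and its percent ran from 2.07 to 4.96. Kcnk3, an acid-sensitive leak channel, had 2 regions and was at 0% in 10 of 18 libraries. All 3 libraries at 72 h carried its region chr5:30620169-30621212 (2.20%, 2.31% and 2.33% of the window), and no sham library did. The third sham library had 2.24% from the other region, so the groups were not apart in their percent.

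Of the calcium-activated genes and their relatives, Kcnu1, which encodes a sperm channel opened by voltage and pH, had the highest extent, 4.90% to 10.6% over the 18 libraries. Kcnn1 ran from 0% to 12.8% with sham libraries at both ends, and Kcnn3 from 1.10% to 4.19%. Kcnn1 and Kcnn3 encode small-conductance channels that calcium opens. In the remaining classes the highest were Kcnq3, with 1.04% to 2.25%, and Kcnh6, with 0% to 11.1%. The Kcnh6 libraries at 72 h (9.10%, 10.3% and 11.1%) lay above the sham libraries (7.14%, 3.25% and 5.50%), without passing the test.

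Of the other genes with an unadjusted p under 0.05 in a single contrast, Kcnk16 and Kcnf1 were short genes with peaks in few libraries. Both entered the test only through the groups where they were high. Kcnk16, a leak channel known from pancreas, had a peak in 4 libraries: 2 of 3 at 10 min (6.13% and 6.29%) and 2 of 3 at 72 h (7.49% and 7.47%). Kcnf1, a silent subunit, had one in 3 libraries, 1 at 6 h (10.8%) and 2 at 72 h (9.44% and 7.43%). Kcnk9, an acid-sensitive leak channel, was higher at 1 h (4.39%, 5.45% and 5.36%) than in sham hearts (0%, 3.91% and 3.02%), without overlap. The Kcnk9 difference of 2.76 points was 1.35 with peaks of score 75 or more, 1.81 with equal lists and 1.60 without the first sham library. None of these 3 passed the adjustment.

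Kcne4 had the widest cover of any channel gene, from 1 region at chr1:78816629-78818765 that runs from the promoter shown above into the gene. Sham hearts had 19.3%, 24.3% and 0%, and 2 of 3 libraries at 6 h had a similar extent (28.8% and 26.5%) with the other at 0%. The remaining 12 libraries lay between 14.8% and 29.1%. Groups overlapped throughout.

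Merging the peaks of all libraries gave 557 regions at channel genes, among 78633 at autosomal protein-coding genes. At channel genes 169 (30.3%) had a peak in 1 library only, against 29.8% at all genes. A peak in all 18 libraries was found at 36 (6.46%), against 3.56%. Among those constant regions were chr2:62712795-62714082 in Kcnh7, with a mean score of 224, chr12:11108234-11111155 in Kcns3, with 184, and chr1:192251085-192252704 in Kcnh1, with 154. Most regions, 539 of 557, lay within the gene span itself; exons and introns were not analysed here.

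Regions gained were defined by a peak in 3 of 3 libraries at a time and 0 of 3 sham libraries, and lost regions by the opposite. From the earliest to the latest time, channel genes had 1 gained region (0.225% of all regions at genes), 3 (0.231%), 0 (0.197%), 2 (0.389%) and 4 (0.862%). Lost regions numbered 1 (0.670%), 2 (0.565%), 0 (0.752%), 1 (0.572%) and 0 (0.449%). A Kcnn3 region, chr3:89583017-89584474, was gained at 3 times, 10 min, 1 h and 72 h. Its peak was present in 12 of 15 MI libraries, with 1 of 3 in the 6 h group and 2 of 3 in the 24 h group, and absent from the 3 of sham, with scores from 50.2 to 94.7. A Kcnip1 region, chr11:33873243-33873969, was called in 3 of 3 libraries at 72 h, in 1 each of the 1 h and 24 h groups and in no other, with scores from 76.0 to 101. Both were still gained at 72 h with a score of 75 or more, while the Kcnn3 region then had 2 of 3 libraries at 10 min and at 1 h. With at least 50% of the region to be covered by a library's peaks, the Kcnn3 region had 1 of 3 libraries at 10 min, 2 of 3 at 1 h and 1 of 3 at 72 h, and so was gained at none of these times, while the Kcnip1 region kept 3 of 3 at 72 h. The Kcnk2 region chr1:189234046-189234980 and the Kcnk3 region were gained at 72 h in weaker peaks, and with a score of 75 or more they had 0 and 1 of 3. A Kcnmb3 region, chr3:32480953-32482063, was lost at 10 min and 1 h, and 4 libraries of later times had its peak. With a score of 75 or more only 1 of 3 sham libraries kept that peak, and 2 of 3 with equal lists. The loss thus held under neither of these settings, while with at least 50% of the region covered it held at 10 min and 1 h. Kcnmb3 encodes an accessory subunit of the large calcium-activated channel, and Kcnip1 a calcium-binding partner of Kcnd channels.

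**Figure D5:**
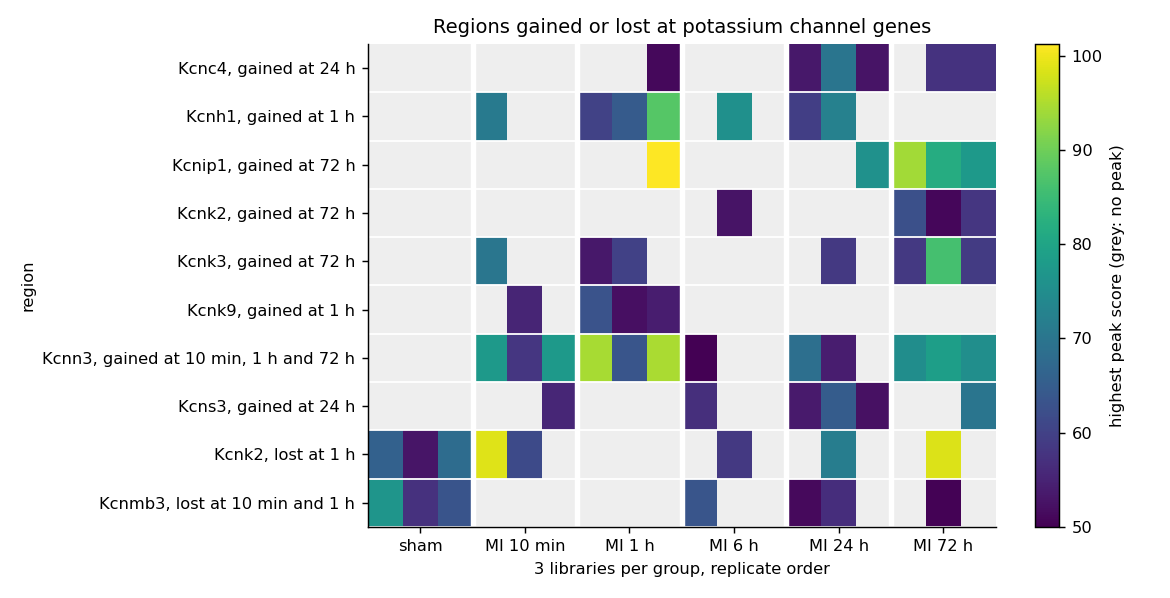
Highest peak score in each of 18 libraries (columns, 3 per group in replicate order) at 10 of the regions gained or lost at potassium channel genes (rows); grey means no peak. The Kcnn3 region is grey in all 3 sham libraries and coloured in 12 of 15 MI libraries.

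Of the heart's channel genes, a list of 13 was chosen, among them Kcna4, Kcna5, Kcnd3, Kcne1, Kcne2, Kcnj3, Kcnj5, Kcnj8, Kcnj11, Kcnj12, Kcnk3 and Kcnn2. Of these 11 could be tested, 0 had a limma adjusted p under 0.05 in any test, and 4 had an unadjusted p under 0.05 in at least 1 of 7, against 18.8% of all 14333 genes tested. Over all channel genes tested, 9 of 75 had such an unadjusted p. Kcnq1, Kcnh2, Kcnd2, Kcnj2 and Kcnip2 were not on the list of 13, and none of them had one. The 4 are therefore not a result about heart channel genes. The median extent of the list was 2.10%. Kcne1, the partner of Kcnq1 in the slow delayed rectifier, was at 0% in all 9 libraries of sham, 10 min and 1 h. At 6 h it had 4.67%, 4.32% and 3.46%, with 2 of 3 libraries sharing a region and the third holding another. At 24 h it had 0%, 7.67% and 0%, and at 72 h 0%, 9.30% and 7.52%, and limma's adjusted p at each time was at least 0.612. Kcna5, which encodes a voltage-gated channel, had no peak at all.

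Among 20 genes outside the family whose products bind potassium channels or carry the related pacemaker current (among them Abcc8, Abcc9, Dpp6, Dpp10, Akap9, Lrrc26, Lrrc38, Lrrc52, Lrrc55, Amigo1, Cav3, Dlg1, Dlg4, Fhl2, Nedd4l, Hcn2, Hcn3 and Hcn4), 19 could be tested. Limma called 0 after adjustment, and 2, of which Cav3 is 1, had an unadjusted p under 0.05 in at least 1 of the 7 tests, beside the same 18.8% of all genes tested. Abcc9, the sulfonylurea receptor that pairs with the Kcnj8 and Kcnj11 pores, had group means from 3.51% to 4.53%.

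Markers of cell types were read only as methylated extent, which does not measure how many cells of a type are present. The 6 heart muscle markers had a mean percent from 0.985 to 2.98 in sham libraries and from 2.44 to 4.73 at 72 h. The 7 leukocyte markers had 0.128 to 1.33 and 0.948 to 1.27, with Cd68 and Lyz2 at 0% in all libraries. The 5 fibroblast markers had 2.11 to 2.98 and 2.13 to 4.17, with Tcf21 at 0% throughout, and the 4 endothelial markers 2.14 to 5.16 and 2.73 to 4.35. In the same order of lists 6, 3, 3 and 4 markers could be tested, and limma called 0 of those after adjustment. An unadjusted limma p under 0.05 in at least 1 of the 7 tests was found for 1, 2, 1 and 0, beside 18.8% of all genes tested. The part of the markers in the values of channel genes was not tested.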

How the data were processed

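MeDIP-seq peak lists of 18 libraries were used as the authors deposited them, 1 list per library. Per the submitters' processing notes the tools were Bowtie2 and MACS2 and the build was mm10; versions, options and any input control are not given in the sources used here. The score in the deposited lists has no stated scale. Its lowest value was 50, and it was used only to filter and describe peaks. Gene spans and promoters came from RefSeq tables of GRCm38.p6, the same assembly as mm10. Groups and replicate numbers came from the sample titles.

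For each gene the percent of the span plus 2000 bases each side under merged peaks was computed (Python 3.11.15, pandas 2.3.3). Autosomal protein-coding genes with a peak in at least 3 of 18 libraries entered 1 limma fit (3.58.1, R 4.3.3) on the linear percent with group as the only term, trend and robust settings, 5 contrasts with sham, their mean and an F test. P-values were adjusted by Benjamini-Hochberg over all genes tested, with a threshold of 0.05. The fit was checked on simulated data.

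The members and lists were chosen with earlier results of these data known. Genes named in the text were Kcnq1, Kcnh2, Kcnd2, Kcnj2 and Kcnip2, the 5 highest mean percents, the 5 widest gaps between group means, the highest of each class, and genes with regions gained or lost at 72 h or at 2 or more times. Alternatives were a score of 75 or more, equal numbers of top peaks (34255), log2(percent + 0.5), no flanks, no filter, covered length as covariate, a replicate block, a 50% overlap for regions, and leaving out each library. Each of the 45 pairs of libraries with the same replicate number in different groups had a correlation of deviations between -0.0611 and 0.0743, so the numbers were not used as pairs. Mice were separate animals. Promoters of 24 genes were not analysed here. Kcnip1 and Kcnmb1 have overlapping windows. Some genes of these lists are not reported here.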

Additional observations from a re-analysis of the deposited data

Results flagged for a closer look

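Among 25 measures looked at for the named genes, 7 had all 3 libraries of 1 time above the sham mean and all 3 of another time below it. The difference between those times was not tested. Kcnj11 and Kcng2 had been named for wide gaps between group means, and Kcnip1, Kcnk3 and Kcnn3 for regions gained or lost. For these genes the pattern follows in part from how they were picked. Its share over all genes tested was not computed, so 7 of 25 is not a result about channel genes. Kcnd2 lay above the sham mean at 6 h and below it at 72 h, by 0.539 percentage points between the group means. Kcnj11 was 16.8 points higher at 72 h than at 6 h, where it was at 0%, and it was also at 0% at 24 h. Kcng2 was 6.17 points higher at 72 h than at 6 h, Kcnip1 1.07 points, and Kcnk3 2.28 points. Kcnq3 was 0.680 points higher at 6 h than at 1 h. Kcnn3 was 1.998 points higher at 1 h than at 6 h. Of the 7, 5 had their lower time at 6 h, the group with the fewest peaks on average (42620 ± 8149, SD, n = 3), and 4 had their higher time at 72 h, the group with the most (56084 ± 6528). The part of list length in these differences was not tested.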

How the results depend on the processing

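The limma count of channel genes past an adjusted p of 0.05 was 0 in all 7 tests under all 25 alternatives. The lowest adjusted p of a channel gene was 0.0563, at 72 h without the third library of that group. Over all genes the count called over the 6 groups ranged from 18 to 41 with other settings (36 in the main fit). From the earliest to the latest time it ranged from 2 to 9 (6), 2 to 8 (6), 2 to 7 (4), 1 to 9 (10) and 7 to 21 (17), and it was 2 to 17 for all MI (9). Leaving out 1 library gave 30 to 45, 3 to 8, 0 to 10, 0 to 9, 4 to 14, 15 to 26 and 3 to 15. With replicate number as a block, 0 channel genes were called and 8 had an unadjusted limma p under 0.05 over the 6 groups (4 without the block). The share of all genes with such a p under the block was not computed, so the 8 are not a result about channel genes. Of the libraries, 9 of 18 correlated best with their own number. With a score of 75 or more, genes not overlapping with sham numbered 2, 2, 3 and 3 from 1 h on (4, 4, 6 and 9 in the main count), and with equal lists 7 at 1 h and 2 at 6 h. Regions gained or lost numbered 0, 2, 1 and 2 from 1 h on with that score (5, 0, 3 and 4 in the main count), and 2 at 1 h with equal lists. With that score the summed percent was 0.999 in sham and 0.876, 0.843, 0.846, 0.929 and 1.08 from the earliest to the latest time. With equal lists it was 1.30 in sham, 1.31 and 1.35 in the first MI groups, and 1.27 and 1.29 in the last, so the higher value at 72 h was not seen there. The rise of the ratio to all genes at 1 h was 0.0698 and 0.0752. Leaving out 1 library, with fewer libraries needed to agree, gave 7 to 14, 8 to 11, 8 to 12, 9 to 15 and 10 to 24 genes not overlapping, in the order of times. Regions gained or lost were then 4 to 12, 7 to 12, 2 to 15, 6 to 13 and 7 to 16. The summed percent was 1.58 to 1.86 in sham, then 1.55 to 1.74, 1.64 to 1.73, 1.44 to 1.73, 1.58 to 1.76 and 1.85 to 2.08, and the rise of the ratio 0.0958 to 0.114. For the counts of genes not overlapping and of regions gained or lost under these alternatives, the share over all genes was not computed. They show how far the counts move and are not results about channel genes. The ratio, and leaving out libraries for regions, were added after seeing the data. Peak lists carry no read depth, so a missing peak may be a region just under the caller's threshold. With 3 libraries a group, the fit detects only changes that are large beside the spread between libraries.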
